A study of Mus musculus with 8 samples.

Results

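The 10 genes described here encode the MCM helicase and factors that load it at replication origins, a step called licensing, or that help to activate it. They were chosen by symbol (Mcm2, Mcm3, Mcm4, Mcm5, Mcm6, Mcm7, Mcm10, Cdc45, Cdc6 and Cdt1) from the 54838 genes of the table, and all 10 were among the 10911 genes with enough reads to be tested. RNA was measured in mouse acute myeloid leukemia (AML) cells of C57BL/6 background that carry the RUNX1-RUNX1T1 fusion, grown in Ptprca recipient mice. The labels give sublethal irradiation of the recipients, whereas the methods of the study name it for the other models only, and in either case a recipient keeps blood cells of its own. The 4 Vehicle samples and the 4 AG636 samples share the fusion and the transplantation, and the AG636 mice received AG636, an inhibitor of the pyrimidine synthesis enzyme DHODH, by oral gavage b.i.d. at 100 mg/kg. The cells were sorted as a cKit-positive fraction after 1 day of treatment, per the text of the study, and the labels name bone marrow and spleen without assigning a tissue to a sample. The promoter that drives the fusion, the age of the mice and whether each sample is a separate mouse were not stated in the sources used here. The legend of the study names a lower number of mice than of samples here. The p-values therefore measure the spread between samples, some of which may share a mouse.

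In late mitosis and G1 phase, the origin recognition complex, Cdc6 and Cdt1 load rings made of Mcm2 to Mcm7 onto replication origins, which licenses each origin to fire once. In S phase the kinases CDK and DDK convert the loaded ring to the active helicase, with Cdc45, the GINS complex and Mcm10. Genes of this machinery are classic targets of the E2F transcription factors, and their RNA is highest around the G1/S boundary in cycling cells. In RNA from many cells, fewer cells in one phase of the cycle and less RNA per cell cannot be told apart.

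All 10 genes had a lower estimated level in AG636 than in Vehicle, and 5 of them fell by the limma-voom test. The 5 were Cdt1, the licensing factor that brings the helicase to the origin, and the ring subunits Mcm5, Mcm3, Mcm4 and Mcm2. No gene of the set rose by limma, by edgeR or by DESeq2, and 0 were higher and 8 lower at an unadjusted p under 0.05. Among all genes tested, 8.49% were called lower and 5.47% higher at an adjusted p under 0.05. The shares of all genes at the unadjusted threshold were not computed, so the 8 has no background here. The same 5 genes had 4 AG636 values below all 4 Vehicle values, while 12.9% of all tested genes were separated in that direction and 9.35% in the other. The median log2 fold change of the 10 genes was −0.37, against −0.01 over all tested genes, and it was −0.44 over the 6 ring subunits.

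The promoters of 6 of the genes held a match to an E2F-type motif, and the matched stretches are shown first because E2F factors are the classic regulators of these genes. RefSeq windows of 250 bases before to 50 bases after the transcript start (GRCm38.p6) were found for 9 of the 10 genes, with none for Mcm4. They were searched on both strands for TTTCCCGC, TTTCGCGC, TTTGCCGC and TTTGGCGC. The stretches below run 5′ to 3′ on the strand of the gene, and capitals mark the matches. Stretches that lie in an annotated exon were kept to 30 bases or less.
Mcm3: gGCGGGAAAacttgggaagtTTTGGCGCc
Mcm5: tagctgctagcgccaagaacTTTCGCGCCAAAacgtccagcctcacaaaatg
Mcm6: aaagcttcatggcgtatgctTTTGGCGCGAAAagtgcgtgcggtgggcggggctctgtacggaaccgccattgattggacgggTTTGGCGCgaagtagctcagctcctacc
Mcm7, upstream match: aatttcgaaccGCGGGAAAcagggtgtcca
Mcm7, downstream match: gggtgacgacgTTTCGCGCcaatttcggtt
Cdc6: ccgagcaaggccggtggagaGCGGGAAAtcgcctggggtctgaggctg
Cdt1: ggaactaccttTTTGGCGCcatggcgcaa

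The Mcm3 stretch lies at chr1:20820266-20820294 on the minus strand, and holds 1 match in each direction from 20 to 46 bases after the transcript start. The Mcm5 stretch lies at chr8:75109336-75109387 on the plus strand, with a forward and a reverse match that share 4 bases from 153 to 142 bases before the start. The Mcm6 stretch lies at chr1:128359725-128359835 on the minus strand, with the same kind of overlapping pair from 110 to 99 bases before the start and a single match from 47 to 40 bases before it. The Mcm7 stretches lie at chr5:138172030-138172059 and chr5:138171849-138171878 on the minus strand, the first of them 165 to 158 bases before the start and the other 17 to 24 bases after it. A further annotated start of Mcm7 had no match in its window. The RefSeq starts of Cdc6 and Mcm7 lie inside the genes as the deposited table gives them, so that the Cdc6 match and the upstream Mcm7 match lie within those genes. The Cdc6 stretch lies at chr11:98907993-98908040 on the plus strand and its match 138 to 131 bases before the start. The Cdt1 stretch lies at chr8:122568036-122568064 on the plus strand and its match 33 to 40 bases after the start.

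These letters occurred in 2.26% of all 32851 RefSeq windows and in 5.16% of the 8154 tested genes that had a window. The windows of Mcm2, Mcm10 and Cdc45 held none of the 4 sequences. Of the 6 genes with a match, Cdt1, Mcm5 and Mcm3 fell with AG636, and Mcm6, Mcm7 and Cdc6 did not pass the test. CCAAT, another short promoter sequence, occurred in the windows of 7 of the 9 genes, in 43.5% of the tested genes with a window and in 37.4% of all windows, and 1 such match in Mcm7 shared a base with the downstream E2F-type match. Leaving the set out, 415 tested genes had an E2F-type match, of which 13.5% were called lower and 3.37% higher, with a median log2 fold change of −0.07. All 8145 tested genes with a window outside the set gave 8.97%, 5.50% and −0.02, and no test was made of the difference.

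**Figure D1:**
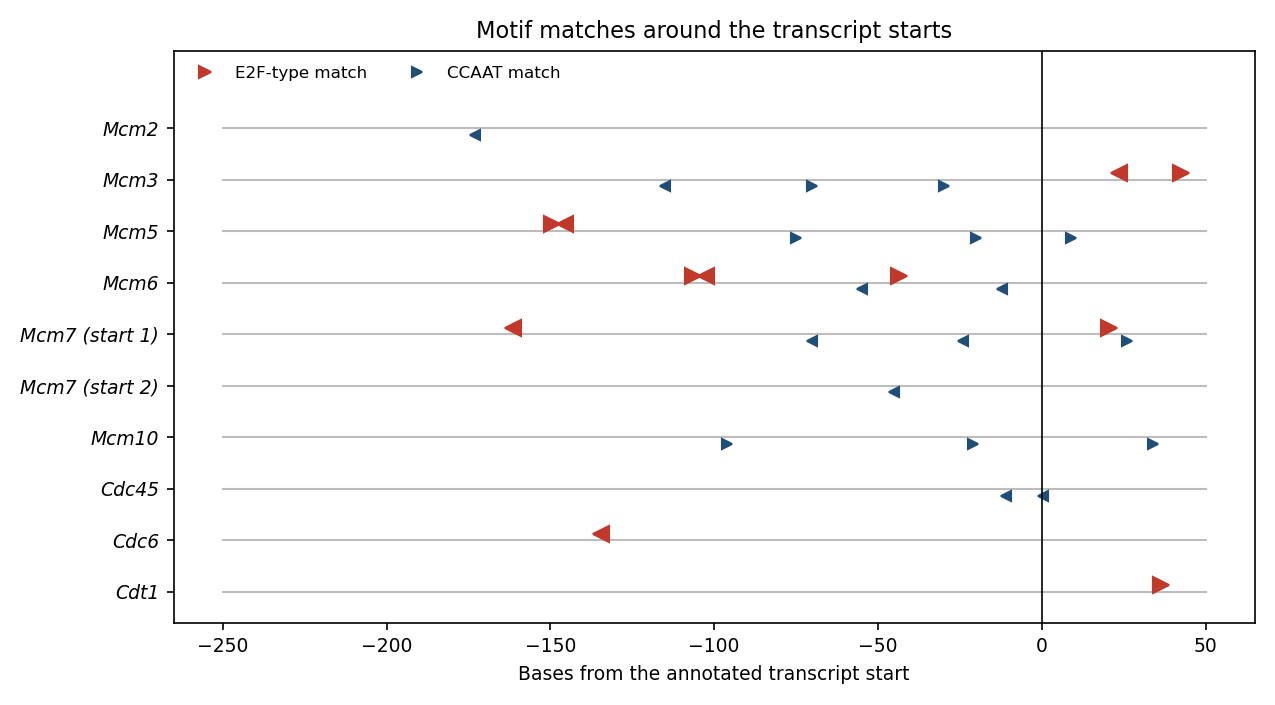
Positions of E2F-type (large red) and CCAAT (small blue) matches in the promoter windows of 9 genes, in bases from the annotated transcript start, with arrows giving the strand relative to the gene. Mcm7 has 2 annotated starts, and the windows of Mcm2, Mcm10 and Cdc45 show CCAAT matches only.

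Cdt1 (ENSMUSG00000006585, chr8:122568015-122573554, plus strand, GRCm38) recruits the MCM ring to origins and is kept in check by geminin and by proteolysis outside G1 phase. Its level, in reads scaled to a common library size by TMM (CPM), was 176, 162, 158 and 169 in Vehicle samples 1 to 4. In AG636 samples 1 to 4 it was 91.0, 96.3, 104 and 117. Every AG636 value lay well below the lowest Vehicle value. The mean went from 166 ± 8.05 (SD, n = 4) to 102 ± 11.1 CPM, and Cdt1 fell by 38.7%. The log2 fold change was −0.71 (SE 0.09, limma adjusted p = 0.00214), which was the lowest of the 10 genes, and 3.39% of all tested genes had a lower one.

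Cdc6 (ENSMUSG00000017499, chr11:98907801-98923940, plus strand) is the ATPase that joins the origin recognition complex before the ring is loaded. Its levels were 117, 126, 114 and 151 CPM in Vehicle and 109, 125, 84.7 and 123 CPM in AG636. The groups overlapped, with AG636 samples 1 and 3 below the Vehicle range. On the log2 scale the change of Cdc6 was −0.20 (SE 0.14, 95% interval −0.50 to 0.10, limma adjusted p = 0.344). With Vehicle sample 4 and AG636 sample 3 left out it was 0.03, so that the estimate of Cdc6 rested on those libraries. The difference between the changes of Cdt1 and Cdc6 was not tested.

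**Figure D2:**
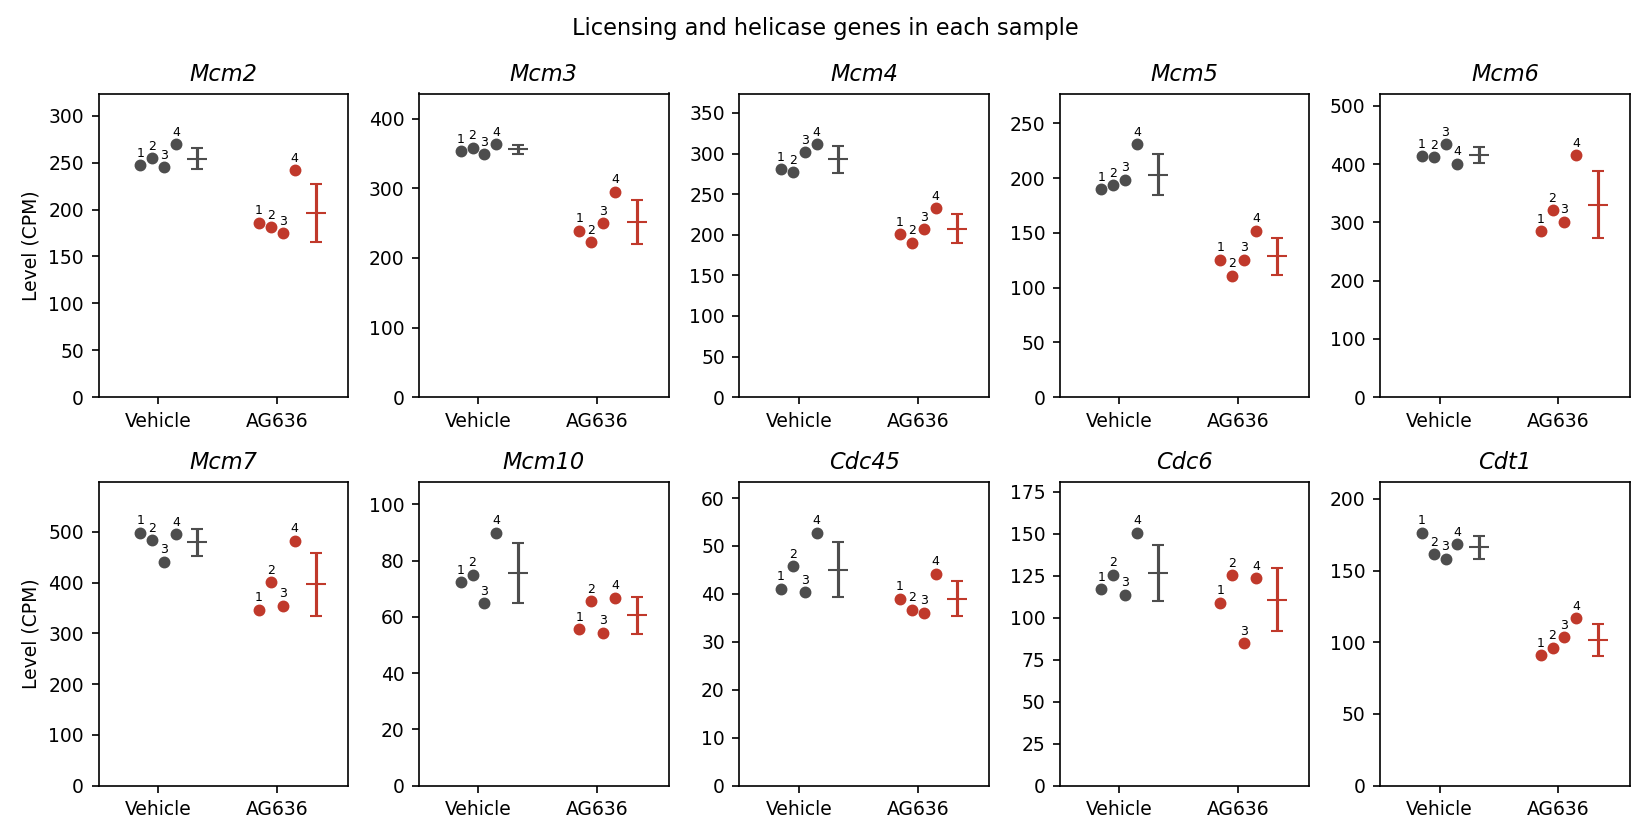
Level of each of the 10 genes in CPM (vertical axes, from 0) in 4 Vehicle (grey) and 4 AG636 (red) samples, numbered as in the text, with the mean and SD beside the points. The groups do not overlap for Mcm2, Mcm3, Mcm4, Mcm5 and Cdt1.

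Of the 6 ring subunits, Mcm5 (ENSMUSG00000005410, chr8:75109569-75128439, plus strand) had the largest estimated change. In the loaded ring, Mcm2 and Mcm5 form the gate through which DNA enters. Levels of Mcm5 were 190, 193, 198 and 231 CPM in Vehicle and 126, 111, 125 and 152 CPM in AG636. The groups were apart, with sample 4 the highest of each. The mean went from 203 ± 18.9 (SD, n = 4) to 128 ± 17.2 CPM, which is −0.66 on the log2 scale (SE 0.11, limma adjusted p = 0.00469).

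Mcm3 (ENSMUSG00000041859, chr1:20802968-20820312, minus strand), the subunit whose C-terminal domain docks the ring on the origin recognition complex and Cdc6, was the steadiest of the set across Vehicle. Its Vehicle levels were 353, 359, 349 and 364 CPM. Its AG636 levels were 239, 223, 250 and 295 CPM. All AG636 values lay under the narrow Vehicle range, whose coefficient of variation was 1.77%, against 2.06% for counting error alone and 12.4% in AG636. Mcm3 changed by −0.51 on the log2 scale (SE 0.09, limma adjusted p = 0.00694).

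Mcm4 (ENSMUSG00000022673, chr16:15623897-15637400, minus strand), whose N-terminal tail is a main substrate of DDK, had 281, 277, 302 and 312 CPM in Vehicle. In AG636 it had 200, 190, 207 and 233 CPM. The groups did not overlap. Mcm4 changed by −0.50 on the log2 scale (SE 0.09, limma adjusted p = 0.00565), close to that of Mcm3. Cdt1, Mcm3, Mcm4 and Mcm5 kept their calls in all 21 alternative analyses, with adjusted p-values of at most 0.0268.

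Mcm2 (ENSMUSG00000002870, chr6:88883474-88898780, minus strand), which also binds histones at the fork, had 247, 255, 245 and 270 CPM in Vehicle. In AG636 it had 186, 181, 175 and 242 CPM. AG636 sample 4 lay just under the lowest Vehicle value, and the other 3 lay far below it. For Mcm2 the log2 fold change was −0.39 (SE 0.11, limma adjusted p = 0.0352). This call was lost in 10 of the 21 alternatives, among them the omission of any single library other than AG636 sample 4 (adjusted p = 0.0597 to 0.0976). Without AG636 sample 4 the log2 fold change was −0.48 (limma adjusted p = 0.00552).

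Mcm6 (ENSMUSG00000026355, chr1:128331590-128359664, minus strand) is a further subunit of the ring. Its levels were 414, 413, 435 and 401 CPM in Vehicle and 285, 321, 301 and 415 CPM in AG636. AG636 samples 1 to 3 lay below all Vehicle values, and sample 4 lay at the Vehicle mean. The log2 fold change was −0.34 (SE 0.11, 95% interval −0.59 to −0.10, limma adjusted p = 0.0643). Without AG636 sample 4 it was −0.44 and passed the test (adjusted p = 0.00741).

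Mcm7 (ENSMUSG00000029730, chr5:138164583-138172422, minus strand), another subunit of the ring, had 499, 484, 441 and 495 CPM in Vehicle. Its AG636 levels were 346, 401, 355 and 483 CPM. Again AG636 sample 4 stood inside the Vehicle range and the other 3 below it. Mcm7 changed by −0.29 on the log2 scale (SE 0.11, 95% interval −0.53 to −0.05, limma adjusted p = 0.104), and −0.37 without AG636 sample 4 (adjusted p = 0.0226). Mcm7 shares 64 exon bases with Cops6 on the opposite strand, where the 3′ ends of the genes meet. Whether the counting used strand was not stated, so reads of the pair may not be told apart, although Cops6 had 3191 counts over the 8 samples against 22985 for Mcm7. The Mcm7 gene also shares 321 exon bases at its other end with Ap4m1 and hosts the microRNA genes Mir25, Mir93 and Mir106b.

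The summed level of the 6 ring subunits was 1984, 1980, 1971 and 2072 CPM in Vehicle. In AG636 it was 1383, 1427, 1413 and 1820 CPM. Samples 1 to 3 of AG636 lay close together and sample 4 between them and Vehicle. Within this sum, Mcm5 made up 10.1% ± 0.708 of the ring's counts (SD, n = 4) in the Vehicle group and 8.52% ± 0.588 in the AG636 group, and the groups did not overlap. The share of Mcm7 was 24% ± 1.16 in Vehicle and 26.2% ± 1.44 in AG636, with overlap. For each Mcm7 read there were 0.424 ± 0.0407 Mcm5 reads in Vehicle and 0.327 ± 0.0395 in AG636, again without overlap. These shares and this pair were picked after the values were seen and were not tested.

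**Figure D3:**
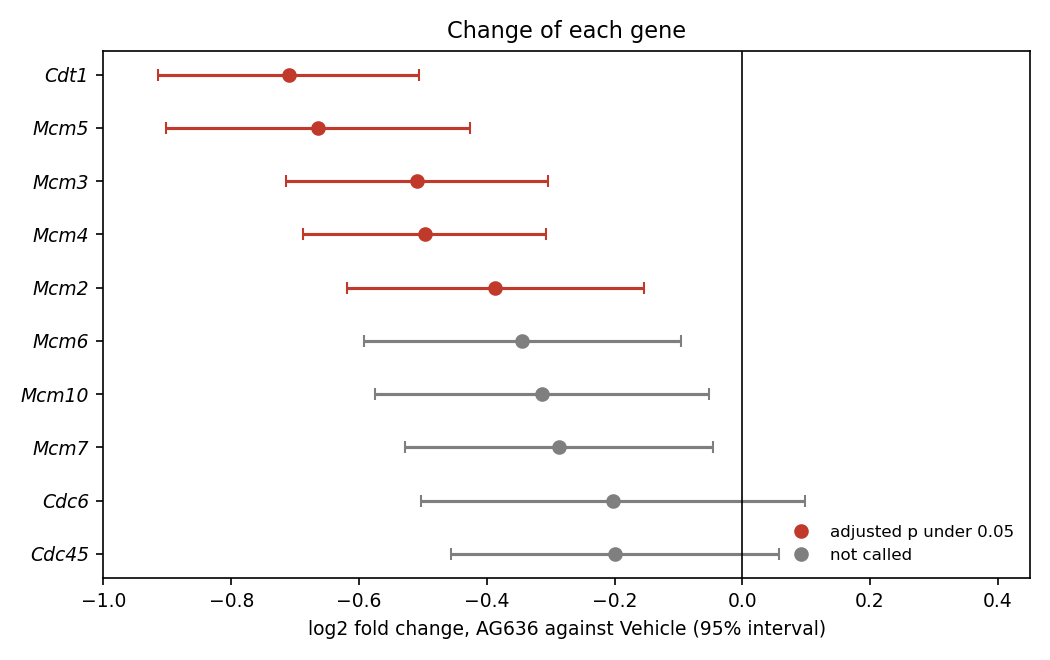
Log2 fold change of each gene in AG636 against Vehicle (horizontal axis) with its 95% interval from limma-voom, ordered by size, with red marking an adjusted p under 0.05. Cdt1 lies at −0.71 and Cdc45 at −0.20, and the unadjusted intervals of Cdc6 and Cdc45 include 0.

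Mcm10 (ENSMUSG00000026669, chr2:4989714-5012791, minus strand) binds the helicase as it is activated and stabilizes the fork. It had 72.4, 75, 64.8 and 89.9 CPM in Vehicle. It had 55.5, 65.4, 54.4 and 66.8 CPM in AG636. The groups met at Vehicle sample 3, which lay under AG636 samples 2 and 4. For Mcm10 the log2 fold change was −0.31 (SE 0.12, 95% interval −0.58 to −0.05, limma adjusted p = 0.101). It was −0.16 with Vehicle sample 4 and AG636 sample 3 left out.

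Cdc45 (ENSMUSG00000000028, chr16:18780447-18811987, minus strand), the cofactor that joins the ring and GINS in the active helicase, had the fewest reads of the set, 226 to 347 per sample. Its levels were 41.1, 45.8, 40.4 and 52.8 CPM in Vehicle and 39.0, 36.7, 36.1 and 44.2 CPM in AG636. Only AG636 sample 4 reached the Vehicle range. The log2 fold change was −0.20 (SE 0.12, 95% interval −0.46 to 0.06, limma adjusted p = 0.273). It was −0.06 with Vehicle sample 4 and AG636 sample 3 left out. Cdc45 shares 209 exon bases with Ufd1 on the opposite strand, and Ufd1 had more counts (3509 over the 8 samples against 2201). Both genes start at these shared bases, whereas the kit reads transcripts near the 3′ end. How many reads fell in the shared bases was not tested.

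AG636 sample 4 had the highest AG636 level for 9 of the 10 genes, all but Cdc6, and lay inside the Vehicle range for 5 of them (Mcm6, Mcm7, Mcm10, Cdc45 and Cdc6). It stood at 70.2% of the Vehicle mean for Cdt1 and 74.9% for Mcm5, at 99.9% for Mcm6 and at 101% for Mcm7. Leaving it out gave 7 genes called lower, with Mcm6 and Mcm7 added, whereas leaving out any other single library gave 4. Over all genes, 937 were called lower without AG636 sample 4, and 467 to 937 without any other single library. Vehicle sample 4 was likewise the highest Vehicle sample for 7 of the 10 genes. In a scaling plot of the libraries, Vehicle sample 4 and AG636 sample 3 stood apart from their groups. Without both, 4 of the 10 genes were called lower (Cdt1, Mcm3, Mcm4 and Mcm5), and 798 of all genes.

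**Figure D4:**
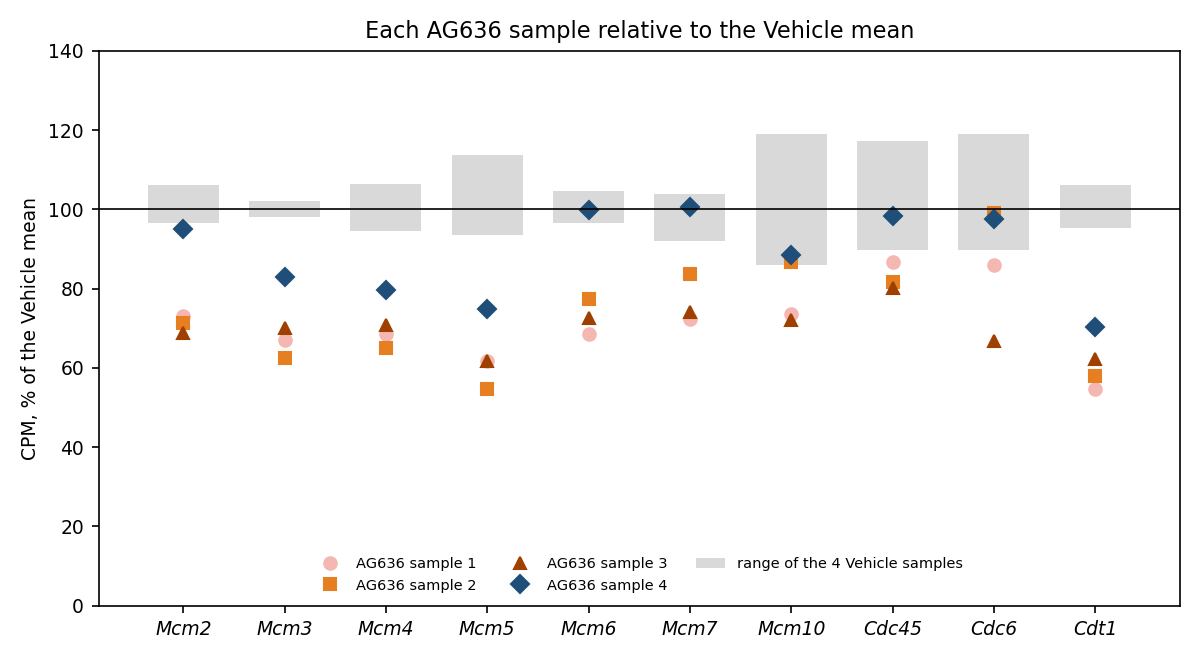
Level of each gene in AG636 samples 1 to 4 as a percentage of the Vehicle mean (vertical axis), with grey bars for the range of the 4 Vehicle samples. AG636 sample 4 (blue diamonds) lies at 99.9% for Mcm6 and 101% for Mcm7, and at 70.2% for Cdt1.

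After removing each group's mean, the log2 levels of the ring subunits moved together across the 8 samples, with a median Pearson r of 0.822 over 15 pairs (0.480 to 0.940). These r describe 8 libraries that also share their scaling and depth. For each ring subunit the largest deviation was that of AG636 sample 4, 0.17 to 0.34 above its group mean. That library therefore weighs heavily in these r and in the ranking below, and r without it were not computed. The genes whose levels followed the mean of the ring most closely in this sense, out of 7144 tested genes of sufficient level, were Mtf1 (r = 0.985), Alg9 (0.982), Med28 (0.980), Cfap298 (0.976) and Eftud2 (0.972). Of these, Eftud2 fell with AG636 (log2 fold change −0.46, limma adjusted p = 0.0112), and Mtf1, Alg9, Med28 and Cfap298 had log2 fold changes between −0.08 and 0.02.

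The partners of the set in replication were read from 5 lists of 51 genes, all of them tested, of which 7 fell and 1 rose by the limma test (8.49% and 5.47% of all tested genes). The median log2 fold change over the 51 genes was −0.22, 41 of them had a negative estimate, and 15 were separated downward and 2 upward between the groups (12.9% and 9.35% of all tested genes). In the origin recognition complex, Orc1 was the 1 of 6 subunits to fall. Orc1, the ATPase subunit that is restricted to part of the cell cycle in mammals, had 17.2, 16.6, 17.2 and 14.5 CPM in Vehicle and 8.71, 7.66, 7.98 and 11.6 CPM in AG636. The groups did not overlap, and the change of −0.87 on the log2 scale (SE 0.16, limma adjusted p = 0.00823) was larger in size than that of any of the 10 genes. Orc6 (−0.30, adjusted p = 0.0522) and Orc5 (0.32, adjusted p = 0.241) did not pass, and the median of the 6 subunits was −0.12.

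Among 7 regulators of licensing, Gmnn was called lower (8.49% of all tested genes were called lower). Gmnn encodes geminin, which binds Cdt1 and blocks relicensing. Its level was 142 ± 13.3 CPM in Vehicle and 115 ± 6.89 CPM in AG636 (SD, n = 4), or −0.30 on the log2 scale (SE 0.09, limma adjusted p = 0.0484), and the call was lost in 18 of 21 alternatives. The ratio of Cdt1 to Gmnn counts was 1.24, 1.15, 1.25 and 1.06 in Vehicle and 0.728, 0.842, 0.947 and 1.04 in AG636, so that the groups came close but did not overlap. This ratio was not tested. Mcmbp, an MCM-binding chaperone (−0.24, adjusted p = 0.0783), and Kat7, a histone acetyltransferase that acts with Cdt1 (0.20, adjusted p = 0.0999), did not pass in the limma fit.

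Of the 4 GINS subunits, which travel with Cdc45 and the ring, Gins2 fell (8.49% of all tested genes were called lower). It had 48.5, 45.0, 49.8 and 48.1 CPM in Vehicle and 24.6, 20.6, 29.4 and 41.5 CPM in AG636. Sample 4 of AG636 was again nearest to Vehicle. The log2 fold change was −0.76 (SE 0.17, limma adjusted p = 0.0175), and the call was lost without Vehicle sample 3 or AG636 sample 1. Gins4 (−0.26, adjusted p = 0.121) and Gins1 (−0.31, adjusted p = 0.274) did not pass. Of 7 origin firing factors, 0 passed by limma, edgeR or DESeq2. At an unadjusted p under 0.05, for which no share over all genes was computed, 2 of the 7 were lower. The 3 with the smallest p were Topbp1, a scaffold for CDK-dependent firing (−0.23, limma adjusted p = 0.0851), Cdc7, the kinase subunit of DDK (−0.25, 0.145), and Ticrr (0.21, 0.213).

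At the fork, 4 of 27 factors fell and 1 rose, with a median of −0.22, where 8.49% of all tested genes fell and 5.47% rose. Pold3, a subunit of DNA polymerase delta, went from 87.2 ± 6.73 to 59.8 ± 6.01 CPM (SD, n = 4; log2 fold change −0.54, limma adjusted p = 0.00668). Fen1, the nuclease that trims Okazaki fragments, went from 168 ± 5.21 to 118 ± 15.5 CPM (−0.52, limma adjusted p = 0.00750). Pole3, a small subunit of DNA polymerase epsilon, went from 104 ± 10.2 to 65.6 ± 13.2 CPM (−0.68, limma adjusted p = 0.00981). All 3 were separated between the groups and kept their calls in all 21 alternatives. The other calls, named after their values were seen, were Pold2 (−0.40, limma adjusted p = 0.0407), lost in 10 of 21 alternatives, and Pold4, the 1 gene that rose (0.67, limma adjusted p = 0.0327), lost in 9. Both encode further subunits of polymerase delta. Mcm8 and Mcm9, paralogs of the ring subunits that act in recombination, had log2 fold changes of −0.08 (limma adjusted p = 0.799) and 0.07 (0.825), and Mcmdc2 had too few reads to be tested.

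Of 11 E2F and pocket protein genes, 2 fell and 2 rose (8.49% and 5.47% of all tested genes). Rb1, whose product restrains E2F activity, had 63.4, 52.7, 53.2 and 50.7 CPM in Vehicle and 83.8, 86.7, 68.1 and 81.4 CPM in AG636, a rise of 0.54 on the log2 scale (limma adjusted p = 0.0103). Rbl2, another pocket protein, rose from 67.2 ± 6.04 to 90.5 ± 4.6 CPM (0.43, limma adjusted p = 0.0123). E2f6, a repressor of the family, went from 18.8 ± 1.63 to 11.4 ± 2.06 CPM (−0.72, limma adjusted p = 0.0141). It lost its call at a threshold of 0.01, and without Vehicle sample 4 and AG636 sample 3 together. E2f4 (−0.46, limma adjusted p = 0.0446), named after its value was seen, lost its call in 15 of 21 alternatives.

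Genes of mitosis lay on the other side of 0. All 16 had a positive estimate, with a median log2 fold change of 0.30, and 7 rose (5.47% of all tested genes were called higher), while 0 fell by limma, edgeR or DESeq2 and 0 were lower at an unadjusted p under 0.05. Cenpf, a kinetochore protein, had 240, 248, 213 and 270 CPM in Vehicle and 352, 341, 362 and 327 CPM in AG636, a rise of 0.51 on the log2 scale (limma adjusted p = 0.00544). Cdc20, an activator of the anaphase-promoting complex, went from 164 ± 33.1 to 237 ± 18.5 CPM (0.55, limma adjusted p = 0.0181). Ccnb2, a B-type cyclin, went from 211 ± 20.8 to 319 ± 69.4 CPM (0.58, limma adjusted p = 0.0198). The count moved with single libraries. It was 1 without Vehicle sample 1, 2 or 3, 2 without AG636 sample 1, 9 without Vehicle sample 4, and 11 without both libraries that stood apart. Over all genes, the calls of higher genes went from 597 to 262, 309 and 221 without Vehicle samples 1, 2 and 3. They were 404 without AG636 sample 1, 418 without Vehicle sample 4 and 747 without both libraries. Of the mitosis genes, 1 of 13 with a promoter window had an E2F-type match, and all 13 had CCAAT. Among the replication partners, E2F-type matches were found in 8 of 23 fork factors with a window (34.8%), 2 of 6 origin recognition genes, 2 of 6 licensing regulators, 1 of 5 firing factors and the 1 GINS gene with a window. The E2F and pocket protein genes had them in 4 of 8. What part a different spread of cells over the cell cycle had in the values of the licensing and helicase genes was not tested.

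**Figure D5:**
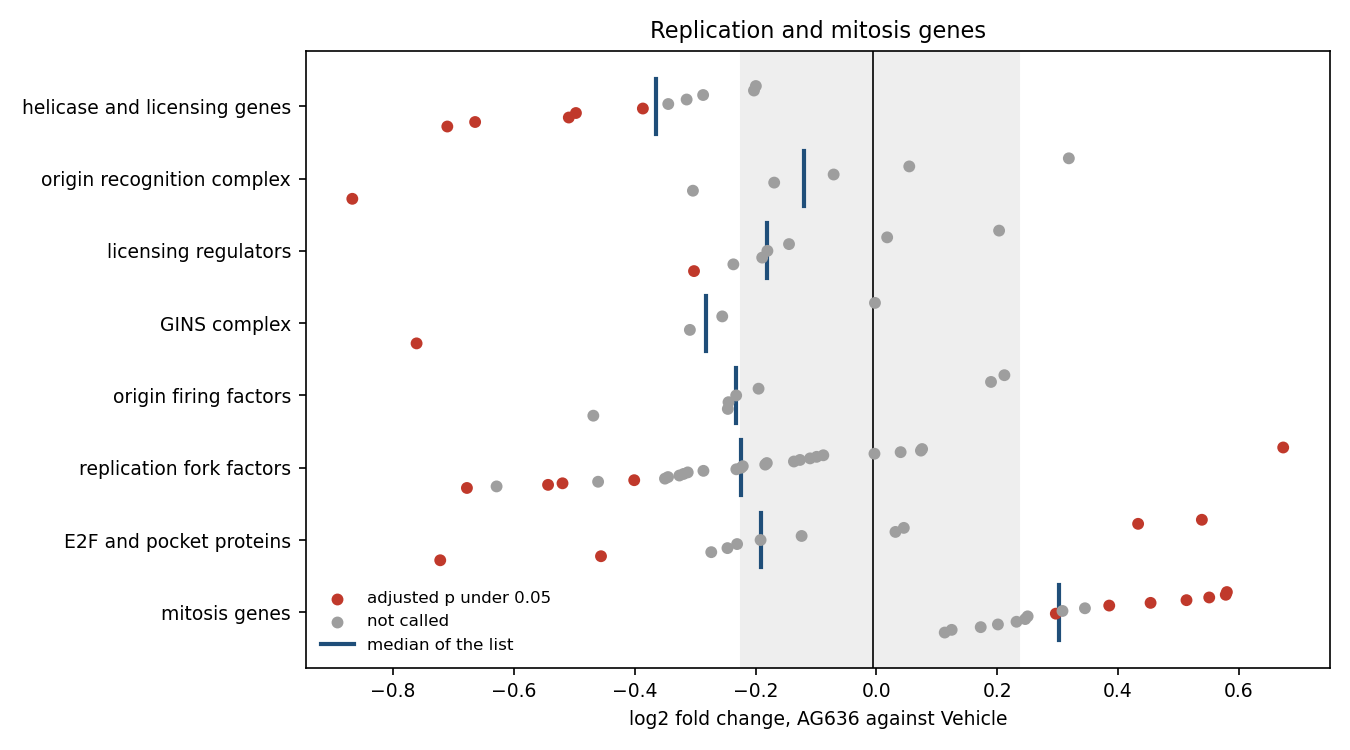
Log2 fold change in AG636 against Vehicle (horizontal axis) of each tested gene in 8 lists, with red for an adjusted p under 0.05, grey for the others and a blue bar at each list's median. The black line and the pale band mark the median and the middle 50% of all tested genes. The licensing and helicase genes have a median of −0.37 and the mitosis genes one of 0.30.

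Library totals were 6586446 to 7162036 counts in Vehicle and 6120030 to 6610360 in AG636 (two-sided exact permutation p = 0.0571, adjusted p = 0.2 over 7 measures, smallest possible 0.0286). Markers of AML progenitors summed to 568 to 705 CPM in Vehicle and 643 to 952 CPM in AG636. Most of this sum came from Kit and Myb, with Vehicle means of 163 and 447 CPM. Elane and Ctsg had 30 counts or fewer in every sample, and Mpo, Prtn3 and Ms4a3 had at most 33, 31 and 43. The 12 erythroid markers, all of them detected, summed to 5133 to 9288 CPM in Vehicle and 8059 to 9876 CPM in AG636, above the progenitor markers in every sample, although the labels name only AML cells. Most defining markers of the other lineages were near 0: at 30 counts or fewer in every sample stood 6 of 10 for neutrophils, 6 of 8 for macrophages, 5 of 9 for B cells and 8 of 10 for T and NK cells. Neutrophil markers summed to 15.7, 153, 20.6 and 184 CPM in AG636 samples 1 to 4. Sample 4, nearest to Vehicle in most of the licensing and helicase genes, was thus the highest, followed by sample 2. They summed to 41.2 to 96.7 CPM in Vehicle. Macrophage markers summed to 5.69 to 9.13 CPM in Vehicle and 6.54 to 15.6 CPM in AG636, B cell markers to 16.3 to 38.5 and 25.7 to 109 CPM, and T and NK cell markers to 7.0 to 11.4 and 6.70 to 21.5 CPM. The exact adjusted p over the 7 measures was 0.2 to 0.686 for these lists, and their part in the results was not tested. Among single markers, chosen after their values were seen, Hbb-bt, a globin gene, rose (log2 fold change 0.90, limma adjusted p = 0.0238), as did the B cell gene Cd79a (1.83, limma adjusted p = 0.0266), which had 2 to 22 counts per sample. The estimate was positive for 10 of 12 tested erythroid, 6 of 6 B cell, 2 of 2 macrophage and 2 of 2 T and NK cell markers. It was negative for 4 of 4 tested neutrophil markers, although the mean CPM of each was higher in AG636. The AG636 samples were far apart, with S100a8 at 6.84, 69.8, 5.90 and 76.0 CPM against 17.6 to 40.1 in Vehicle. Slc4a1, an erythrocyte anion exchanger, had 1.58 (limma adjusted p = 0.0501).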

How the data were processed

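RNA of 8 sorted samples was sequenced with a QuantSeq 3′ kit, which places reads near the 3′ end of each transcript. The authors deposited a table of raw counts. Per the labels, the authors trimmed reads (cutadapt 1.9.1), mapped them to mm10 (HISAT2 2.0.4) and counted them per gene (featureCounts, Subread 1.5.0-p3). The methods of the study give other versions of cutadapt and Subread. The treatment of strand, of overlapping genes and of reads with several positions was not stated.

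Genes were kept by filterByExpr (minimum count 10), libraries were scaled by TMM, and the groups were tested with limma-voom under R 4.3.3 (edgeR 4.0.16, limma 3.58.1). Group was the only term, and limma was used since the study names it. Tests were two-sided, with Benjamini-Hochberg adjustment over all 10911 genes tested and a threshold of 0.05. CPM are counts after TMM scaling of the libraries. Totals of 6120030 to 7162036 counts gave each of the 10 genes 226 to 3422 reads per sample. Counting error covers the reads only. Single measures were compared by exact permutation over 70 relabellings. Alternatives used edgeR, DESeq2 1.42.0, other scalings, filters and weights, a replicate block, a threshold of 0.01 and the omission of libraries. The scripts were tested on simulated counts. Replicates differed beyond sampling noise in every pair (chi-square per degree of freedom of 3.69 to 22.6).

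The 10 genes and the lists were chosen with earlier results of these data known. Besides the 10 genes, the text names the 3 genes of each list with the smallest p, the 5 genes most correlated with the ring among those whose average log2 CPM reached 4, and genes that overlap the set, and says where a gene was picked after its value was seen. For 115 genes no symbol was found. Gene positions are those of the deposited table (GRCm38) and, for the 10 genes, were the same in GENCODE M21. Promoter sequences came from RefSeq (GRCm38.p6). The RefSeq starts of Mcm5 and Mcm6 lie upstream of the starts in the deposited table, and those of Cdc6, Cdc45 and Mcm7 downstream.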

Additional observations from a re-analysis of the deposited data

Results flagged for a closer look

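In 124 groups of 4 samples (the 10 genes, the 51 replication partners and the library total, in each group), 3 had a sample far from its group by Dixon's 95% criterion, where chance gives about 6.2. Values are log2 CPM. Pold2, the polymerase delta subunit, was 5.12 in AG636 sample 1 and 5.41 to 5.46 in the other AG636 samples. Rfc5, a clamp loader subunit, was 6.53 in Vehicle sample 4 and 6.40 to 6.41 in the others. Timeless, a fork protection factor, was 6.45 in AG636 sample 2 and 6.08 to 6.14 in the others. None of the 10 licensing and helicase genes had such a sample.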

How the results depend on the processing

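The count of the 10 genes called lower was 4 to 7 over 21 alternatives, with 0 called higher in each, and the calls of Cdt1, Mcm3, Mcm4 and Mcm5 were kept in all. Mcm2 lost its call with library size alone (−0.32), at the 0.01 threshold (−0.39) and without Vehicle sample 4 and AG636 sample 3 together (−0.29, an alternative chosen after seeing the data), and ranged from −0.48 to −0.34 with 1 library left out. Mcm6 gained a call with sample quality weights (−0.36), and its range with 1 library left out was −0.44 to −0.28. Mcm7 ranged from −0.37 to −0.23. Of 51 other replication genes, 4 were lower at the 0.01 threshold and 4 to 11 with 1 library left out (11 without AG636 sample 4). The higher ones numbered 2 with DESeq2 or library size alone, 0 with no filter, at 0.01 or without both libraries, and 0 to 1 with 1 left out. Mitosis genes called higher numbered 1 at 0.01, 11 without both libraries and 1 to 9 with 1 left out. Over all genes, 926 were lower and 597 higher. Library size alone gave 571 and 918, which turned the balance of the calls, DESeq2 gave 955 higher, the 0.01 threshold gave 295 and 140, and leaving out 1 library gave 467 to 937 lower and 221 to 769 higher. Library size alone moved the median of all genes by 0.07 (log2). Among 1890 single-gene alternatives over 90 genes, 105 lost a call, 44 gained one and 0 changed sign with a call. Causes were not tested.

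Samples with the same number did not deviate together (r of −0.14, 0.01, 0.20 and 0.14), so the numbers were not taken as pairs. With a replicate block, 5 of the 10 genes were called lower and 0 higher, with 8 other replication genes lower and 1 higher, 6 mitosis genes higher and 0 lower, and 830 genes lower and 616 higher in all. At 226 to 347 reads per sample, counting error alone was 5.80% to 6.28% of the level of Cdc45, and 2 of 10 intervals, those of Cdc45 and Cdc6, included no change.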
